A study of Mus musculus with 21 samples.

Results

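Epiblast stem cells (EpiSCs) were compared with embryonic stem cells (ESCs) of the mouse over all gene names of a table of RNA-seq levels. The comparison takes in the libraries labelled as either cell type, 3 of each, so 6 of the 21 libraries of the series. Both groups bear the cell line name OG2, a mouse line that carries a green fluorescent protein reporter under Pou5f1 regulatory sequence, and both are labelled WT for treatment. The same table holds 3 libraries of 2-cell-like cells (2CLCs) and 3 of mouse embryonic fibroblasts (MEFs), also labelled OG2 and WT, which entered the same statistical fit. The labels give no culture medium, passage number, sex or derivation of the EpiSCs. They do not say whether the replicates were separate cultures, so the p-values measure only the spread between these libraries, which may be technical. Levels are in FPKM (fragments per kilobase of transcript, scaled to the mapped fragments of the library), and in bulk RNA a smaller share of cells with a transcript cannot be told apart from less of it per cell.

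ESCs and EpiSCs are pluripotent cell types that stand for successive stages of the embryo. ESCs resemble the naive epiblast of the blastocyst, and their state is held by LIF and STAT3 signalling and by factors such as ESRRB, KLF4, TFCP2L1 and NANOG. EpiSCs come from the epiblast after implantation, an epithelium that is primed for gastrulation, and they depend on FGF and Activin or Nodal signalling and express OTX2, FGF5 and DNMT3B. POU5F1 (OCT4) is needed in both states. Primed pluripotent cells are also known for a metabolism that relies on glycolysis more than that of naive cells.

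The table held 21161 gene names, and 16358 of them reached 1 FPKM in at least 3 of the 12 libraries and were tested. The FPKM summed to between 398477 and 430314 in the EpiSC libraries and to between 415173 and 416600 in the ESC libraries. The EpiSC libraries had 12677 to 13124 names at 1 FPKM or more, and the ESC libraries had 12266 to 12360. EpiSC replicate 1 stood apart from its group: its log2 values correlated with those of EpiSC replicates 2 and 3 at r = 0.973, across genes, against r = 0.995 between replicates 2 and 3 and r = 0.996 between ESC replicates. Library values are therefore given for replicates 1, 2 and 3 in that order throughout, and results that rest on replicate 1 are given with and without it. The markers fixed for each label were present in the libraries that bear it, Otx2 and Fgf5 in EpiSCs and Zfp42 and Esrrb in ESCs. Summed over a list of 30 fibroblast markers, the EpiSC libraries had 179 to 185 FPKM and the ESC libraries 57.1 to 62.5 FPKM, against 5403 to 5542 FPKM in MEFs.

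EpiSCs and ESCs differed in the majority of genes tested. At an adjusted p of 0.05 or less, by limma's moderated test on log2(FPKM + 1) with Benjamini-Hochberg adjustment, 5438 genes were higher in EpiSCs (33.2% of those tested) and 4327 were lower (26.5%). Genes that differed by 1 or more on the log2 scale numbered 2106 higher (12.9%) and 1292 lower (7.90%). The 3 EpiSC libraries lay wholly above the 3 ESC libraries in 5719 genes (35.0%) and wholly below them in 4659 (28.5%). Without EpiSC replicate 1 the calls came to 6064 higher (37.1%) and 5000 lower (30.6%), and 9484 of the 9765 calls made with all libraries were made again in the same direction. The excess of rises over falls depended on the scaling of the libraries. Median-of-ratios scaling gave 4603 higher and 4936 lower, and quantile normalization gave 4827 and 4850. The median difference over all tested genes was 0.01 on the log2 scale. Fold changes on this scale understate the change of genes with low levels.

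The largest rises and falls were ranked among called genes at 5 FPKM or more with no overlap between the EpiSC and ESC libraries. Predicted genes, pseudogenes and repeated names were left out. The genes that rose most in EpiSCs were Pim2, Krt18, Otx2, Car14, Slc39a8, Psors1c2, Fgf5, Slc16a3, Cldn6, Grb10, Enpp2 and Egr1. Pim2, which encodes a serine/threonine kinase that promotes survival, had 236, 562 and 568 FPKM in EpiSCs, against 3.70, 4.34 and 4.07 FPKM in ESCs. Its rise was 6.40 on the log2 scale (SE 0.27, adjusted p = 4.48e-09), and EpiSC replicate 1, the lowest of its group, was still far above every ESC library. Car14, a membrane-bound carbonic anhydrase, had 26.0, 53.7 and 52.4 FPKM in EpiSCs, against 0.0810, 0 and 0.0190 FPKM in ESCs. Slc39a8, a zinc and manganese importer, had 60.5, 41.1 and 38.5 FPKM in EpiSCs, against 0.195, 0.150 and 0.208 FPKM in ESCs. Both were close to undetected in ESCs. Enpp2, the secreted enzyme autotaxin that makes lysophosphatidic acid, had 16.9, 46.8 and 45.6 FPKM in EpiSCs and less than 0.1 FPKM in each ESC library.

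By the same choice, the genes that fell most were Rps4l, Dppa5a, Zfp42, Esrrb, Tdh, Dnmt3l, Triml2, Nr0b1, Mymx, Gdf3, Tbx3 and Jam2. Tdh, threonine dehydrogenase, which feeds threonine carbon into glycine and acetyl-CoA in mouse ESCs, had 0.989, 2.02 and 1.94 FPKM in EpiSCs, against 270, 269 and 270 FPKM in ESCs. Its log2 difference was -6.70 (SE 0.16, adjusted p = 7.83e-11). Dppa5a, an RNA-binding protein of early embryos, had 0, 0.403 and 0.374 FPKM in EpiSCs, against 512, 515 and 512 FPKM in ESCs. Triml2 was at 0.0217, 0 and 0 FPKM in EpiSCs and at 85.8, 79.9 and 83.8 FPKM in ESCs. That the libraries of the groups do not overlap in these genes was set by the choice of genes. In Tdh and Dppa5a replicate 1 was the EpiSC library farthest from ESCs. Rps4l had 0.571, 0.327 and 0.278 FPKM in EpiSCs and 614, 607 and 618 FPKM in ESCs, but it has close relatives among ribosomal protein genes between which the counting could split reads.

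All 17 transcription factors listed for the naive state fell in EpiSCs, with a median difference of -4.63 on the log2 scale, where 26.5% of all tested genes fell and the median was 0.01. Zfp42 (REX1), a zinc-finger protein used as the marker of naive cells, had 0.0922, 0 and 0 FPKM in EpiSCs, against 319, 318 and 316 FPKM in ESCs. Esrrb, an orphan nuclear receptor that holds naive cells in self-renewal, had 0.398, 0.750 and 0.949 FPKM in EpiSCs, against 291, 279 and 285 FPKM in ESCs (log2 difference -7.41, SE 0.13, adjusted p = 9.81e-12). Both genes were nearly silent in every EpiSC library and strong in every ESC library. Klf4, a Krüppel-like factor downstream of LIF, had 0.466, 1.08 and 1.30 FPKM in EpiSCs and 70.4, 68.1 and 69.6 FPKM in ESCs. Tfcp2l1, another LIF target, had 0.288, 0.475 and 0.468 FPKM in EpiSCs and 57.3, 59.4 and 61.9 FPKM in ESCs. Nr0b1 (DAX1), Tbx3 and Tcl1 were listed at 0 in all 3 EpiSC libraries, whereas their lowest ESC values were 72.3, 47.4 and 26.3 FPKM. Klf2 showed the EpiSC libraries apart from each other, with 0.631 FPKM in replicate 1 and 4.04 and 3.83 FPKM in replicates 2 and 3, all below the 78.5, 82.7 and 85.6 FPKM of ESCs.

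The receptors and effectors of LIF signalling followed the same direction. Socs3, the feedback inhibitor that STAT3 induces, had 2.97, 2.98 and 2.57 FPKM in EpiSCs, against 40.2, 38.4 and 39.4 FPKM in ESCs (log2 difference -3.40, SE 0.09, adjusted p = 2.21e-10). Lifr, the LIF receptor, had 1.24, 3.21 and 3.28 FPKM in EpiSCs and 12.7, 12.3 and 12.2 FPKM in ESCs. Stat3 itself had 4.89, 13.1 and 12.6 FPKM in EpiSCs and 33.6, 31.4 and 32.7 FPKM in ESCs, with EpiSC replicate 1 the farthest from ESCs. Over the 26 tested genes listed as naive state genes, which hold these receptors, the median difference was -3.22. Of them 24 fell, 1 rose and 1 was not called, where 26.5% of all tested genes fell. The gene that rose was Slc7a3, a cationic amino acid transporter, at 159, 129 and 130 FPKM in EpiSCs against 65.7, 67.5 and 65.1 FPKM in ESCs. Jam2, a junctional adhesion molecule, and Laptm5, a lysosomal membrane protein, stayed under 0.2 FPKM in every EpiSC library, against at least 48.8 and 32.1 FPKM in ESCs.

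**Figure D1:**
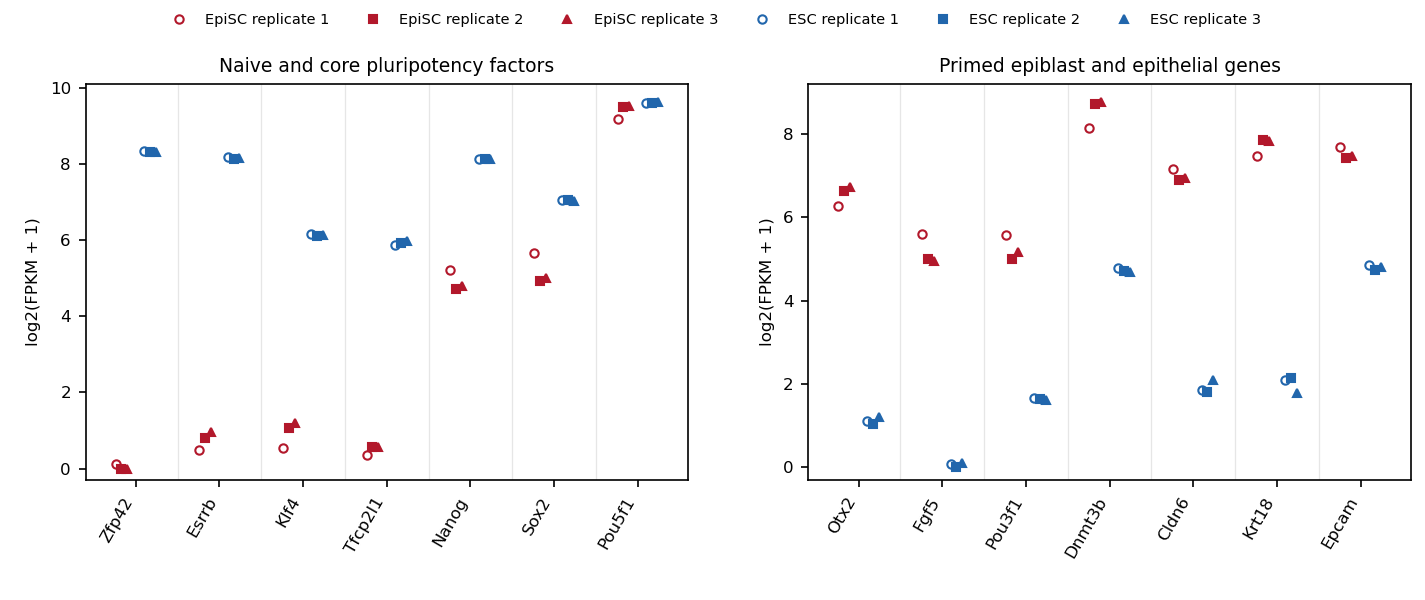
Each point is the log2(FPKM + 1) of a gene in 1 library, EpiSCs in red at the left and ESCs in blue at the right of each gene, with open circles for replicate 1. Zfp42, Esrrb, Klf4 and Tfcp2l1 lie near 0 in EpiSCs, Pou5f1 is nearly level between the groups, and the 7 genes of the right panel are high in all EpiSC libraries.

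The plot of pluripotency and epithelial genes by library also shows the core factors, which fell less than the naive factors did. Of 13 core pluripotency factors, 9 fell, 1 rose and 3 were not called, with a median difference of -1.08, where 26.5% of all tested genes fell. Nanog, a homeodomain factor of pluripotent cells that is also on the naive list, had 36.0, 25.2 and 26.6 FPKM in EpiSCs, against 276, 276 and 279 FPKM in ESCs (log2 difference -3.22, SE 0.10, adjusted p = 6.54e-10). Sox2, the partner of POU5F1 on DNA, had 49.7, 29.2 and 31.1 FPKM in EpiSCs and 131, 131 and 129 FPKM in ESCs, a log2 difference of -1.84 (SE 0.19, adjusted p = 7.98e-06). The EpiSC libraries were below the ESC libraries in both genes, and replicate 1 was the nearest to ESCs.

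Pou5f1 was close to level, with 576, 720 and 736 FPKM in EpiSCs and 778, 776 and 782 FPKM in ESCs. The groups did not overlap, and the log2 difference was -0.21 (SE 0.08, adjusted p = 0.0412) with replicate 1 and -0.10 (adjusted p = 0.0247) without it, so the size was cut by more than 1.5 times. The call was lost when any 1 ESC library was left out, when only the EpiSC and ESC libraries were fitted, and when the spread was fitted without a trend on the mean. Utf1, a chromatin-bound cofactor of pluripotent cells, rose to 313, 316 and 313 FPKM in EpiSCs, against 209, 215 and 207 FPKM in ESCs. Lin28a, an RNA-binding protein that blocks let-7 maturation, had 162, 111 and 114 FPKM in EpiSCs and 121, 115 and 117 FPKM in ESCs, and it was not called. Foxd3 was likewise not called with all libraries, because replicate 1 (25.7 FPKM) lay above the ESC libraries (15.7, 14.1 and 15.1 FPKM) while replicates 2 and 3 (7.14 and 7.09 FPKM) lay below them. Without replicate 1 Foxd3 was lower in EpiSCs (log2 difference -0.97, adjusted p = 1.30e-06).

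Genes of the primed epiblast rose together: 25 of 30 tested members were higher in EpiSCs, 4 were lower and 1 was not called, with a median difference of 2.07, where 33.2% of all tested genes rose. Otx2, the homeodomain factor that drives exit from the naive state, had 76.6, 98.0 and 105 FPKM in EpiSCs, against 1.17, 1.06 and 1.31 FPKM in ESCs (log2 difference 5.42, SE 0.16, adjusted p = 2.74e-10). Fgf5, the growth factor whose transcript marks the epiblast after implantation, had 47.7, 30.9 and 30.1 FPKM in EpiSCs and 0.0559, 0 and 0.0786 FPKM in ESCs. Dnmt3b, a de novo DNA methyltransferase, had 282, 424 and 433 FPKM in EpiSCs and 26.4, 25.1 and 24.9 FPKM in ESCs. None of these showed an overlap between groups, and replicate 1 was the highest EpiSC library for Fgf5 and the lowest for Otx2 and Dnmt3b. Pou3f1 (OCT6), a POU factor of primed cells and neural progenitors, had 46.8, 31.1 and 34.8 FPKM in EpiSCs, against 2.15, 2.14 and 2.09 FPKM in ESCs. Zic2, a zinc-finger factor at primed enhancers, had 68.5, 36.6 and 36.8 FPKM in EpiSCs and 7.92, 8.40 and 8.59 FPKM in ESCs.

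The members that fell included Tcf15, Nkx1-2 and Epha2. Tcf15, a basic helix-loop-helix factor linked to the start of priming in mouse ESCs, had 3.41, 7.90 and 7.48 FPKM in EpiSCs, against 37.7, 39.3 and 40.0 FPKM in ESCs. Replicate 1 was the EpiSC library farthest from ESCs in Tcf15. Over the whole list, the median difference from the ESC mean was 2.42 in EpiSC replicate 1, 1.89 in replicate 2 and 1.86 in replicate 3.

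Of 40 tested epithelial genes for junctions, keratins and their regulators, 28 were higher in EpiSCs, 8 were lower and 4 were not called (median 0.74). Of all tested genes 33.2% rose and 26.5% fell. Krt8, Krt18, Cldn6, Cldn9 and Grhl2 are also on the primed epiblast list and rose, so the counts of both lists are not separate results. Krt18 and Krt8 are the keratin pair of simple epithelia. Krt18 had 176, 229 and 228 FPKM in EpiSCs, against 3.25, 3.40 and 2.44 FPKM in ESCs (log2 difference 5.72, SE 0.20, adjusted p = 9.72e-10). Krt8 had 177, 189 and 187 FPKM in EpiSCs and 6.72, 6.05 and 6.65 FPKM in ESCs. Cldn6, a tight-junction claudin of embryonic epithelium, had 142, 118 and 123 FPKM in EpiSCs, against 2.61, 2.49 and 3.27 FPKM in ESCs. Epcam, an epithelial adhesion molecule, had 205, 171 and 177 FPKM in EpiSCs and 27.8, 25.8 and 27.0 FPKM in ESCs. Esrp1, a splicing regulator of epithelial cells, had 37.8, 27.2 and 27.2 FPKM in EpiSCs and 1.17, 0.986 and 1.28 FPKM in ESCs. In all 5 genes the groups were separated by a wide margin in every library.

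The epithelial members that fell included the gap-junction connexin Gjb5, the claudin Cldn4, the desmosome genes Dsg2, Jup and Pkp3, and the laminin chains Lama1 and Lamc1. Lama1, the laminin chain of early basement membranes, had 0.582, 0.780 and 0.704 FPKM in EpiSCs and 13.9, 12.7 and 13.0 FPKM in ESCs (log2 difference -3.07, SE 0.08, adjusted p = 1.04e-10). Cdh1 (E-cadherin) rose to 179, 117 and 117 FPKM in EpiSCs, against 94.0, 87.7 and 91.3 FPKM in ESCs. Cdh2 (N-cadherin) rose as well, to 4.66, 7.56 and 7.45 FPKM in EpiSCs against 1.96, 1.95 and 1.62 FPKM in ESCs. Replicate 1 was the highest EpiSC library for E-cadherin and the lowest for N-cadherin. Among 14 genes of mesenchymal transition, 4 rose, 2 fell (4 without replicate 1) and 8 were not called, beside 33.2% and 26.5% of all tested genes that rose and fell. The falls with all libraries were Zeb1, a repressor of epithelial genes, and Fn1, fibronectin. Fn1 had 37.1, 34.9 and 34.9 FPKM in EpiSCs and 106, 108 and 115 FPKM in ESCs.

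**Figure D2:**
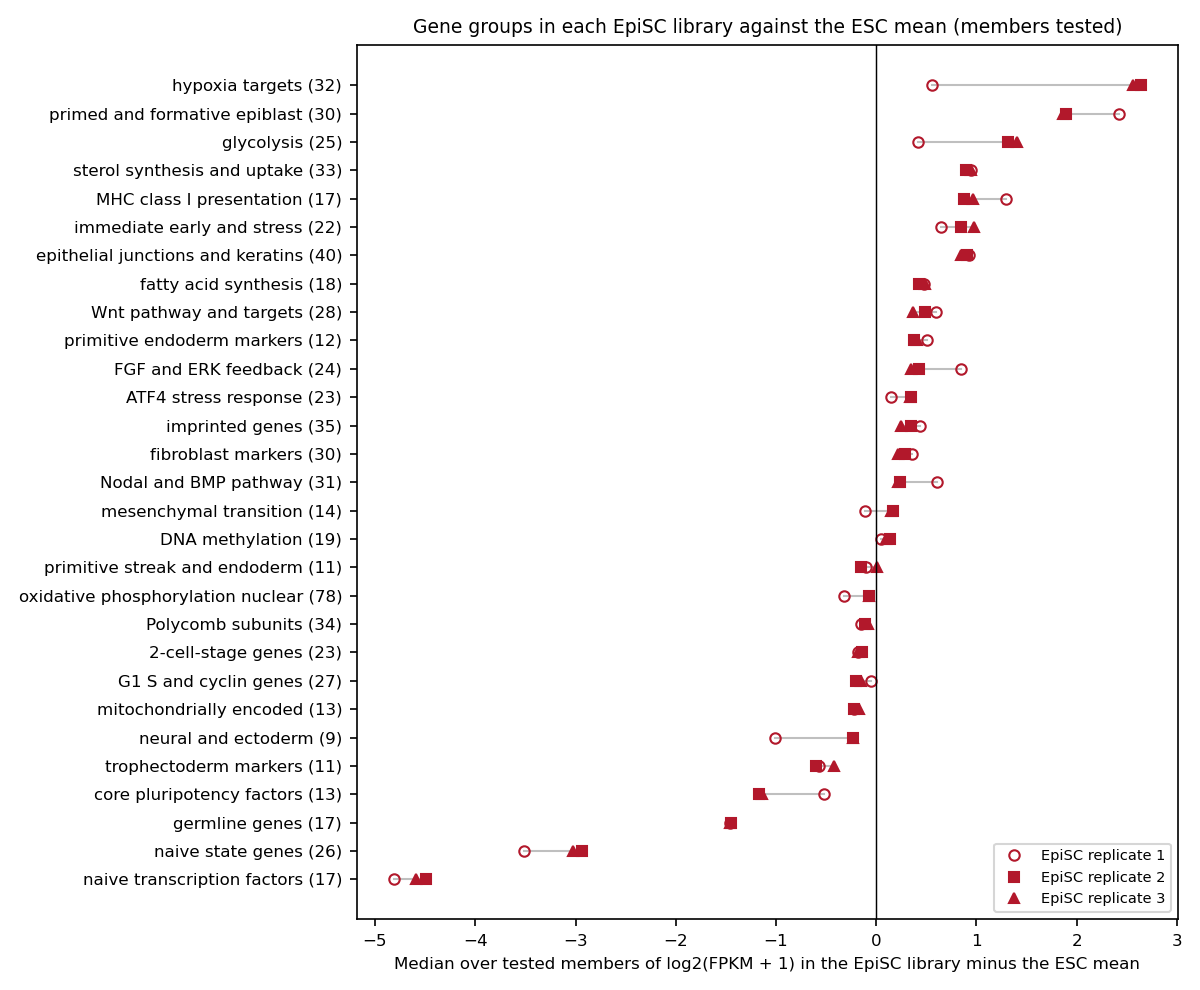
Each row is a gene group with its number of tested members, and each red marker is the median over those members of log2(FPKM + 1) in 1 EpiSC library minus the ESC mean. Naive factors lie between -4.81 and -4.49 in the 3 libraries, whereas replicate 1 (open circle) is at 0.56 for hypoxia targets and 0.42 for glycolysis, against 2.56 or more and 1.32 or more in the other EpiSC libraries.

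Signalling genes changed in both directions, as did all tested genes, of which 33.2% rose and 26.5% fell. In the FGF and ERK list, 15 of 24 tested genes rose, 5 fell and 4 were not called (median 0.67). Without replicate 1, 14 rose and 9 fell, with a median of 0.39. Fgf4, the ligand that ESCs make, had 26.8, 10.1 and 10.1 FPKM in EpiSCs, against 65.9, 63.4 and 62.7 FPKM in ESCs, whereas Fgf8, Fgf15 and the already described Fgf5 rose. Fgf2, under 0.4 FPKM in every library of both groups, fell too. Fgf8 had 7.36, 3.73 and 2.80 FPKM in EpiSCs and 0.110, 0.114 and 0 FPKM in ESCs. The ligands thus differed in direction, with replicate 1 the highest EpiSC library for Fgf4, Fgf5, Fgf8 and Fgf15. Egr1, an immediate target of ERK, had 36.5, 37.6 and 37.8 FPKM in EpiSCs and 0.250, 0.235 and 0.239 FPKM in ESCs (log2 difference 4.95, SE 0.10, adjusted p = 2.09e-11). Dusp6, a phosphatase that dampens ERK, had 104, 114 and 120 FPKM in EpiSCs, against 28.0, 26.0 and 30.3 FPKM in ESCs. The feedback inhibitor Spry4 fell, with 9.75, 7.37 and 6.86 FPKM in EpiSCs and 36.9, 36.9 and 38.0 FPKM in ESCs, and Spry2 and Etv4 fell too.

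In the Nodal and BMP list, 17 of 31 genes rose, 8 fell and 6 were not called (median 0.40), so the share that fell was near that of all genes. The median was 0.24 without replicate 1, and quantile normalization gave 14 higher, 8 lower and a median of 0.13. Foxh1, the DNA-binding partner of SMAD2 and SMAD3, had 69.3, 71.6 and 72.8 FPKM in EpiSCs, against 31.4, 30.1 and 30.2 FPKM in ESCs. Skil, a SMAD co-repressor induced by Nodal signalling, had 42.7, 40.2 and 38.4 FPKM in EpiSCs and 8.28, 8.98 and 9.31 FPKM in ESCs (log2 difference 2.07, SE 0.07, adjusted p = 6.21e-10). Nodal itself, at 32.8, 19.4 and 19.9 FPKM in EpiSCs and 27.6, 26.1 and 26.4 FPKM in ESCs, was not called, and replicate 1 lay above the ESC range while replicates 2 and 3 lay below it. Without replicate 1, Nodal was lower in EpiSCs (log2 difference -0.42, adjusted p = 0.00593). The Nodal antagonists Lefty1 and Lefty2 differed in direction. Lefty1 had 151, 32.8 and 35.7 FPKM in EpiSCs, against 12.9, 17.1 and 15.1 FPKM in ESCs, a log2 difference of 1.85 with replicate 1 and 1.14 without it. Lefty2 had 12.2, 7.35 and 8.31 FPKM in EpiSCs and 48.7, 56.0 and 58.3 FPKM in ESCs. On the BMP side, the ligand Bmp4 had 0.872, 1.88 and 1.44 FPKM in EpiSCs, against 17.8, 16.2 and 18.8 FPKM in ESCs. The BMP target Id1 had 4.85, 9.29 and 6.77 FPKM in EpiSCs and 63.7, 62.8 and 63.4 FPKM in ESCs, and Id3 fell with it. Inhbb, which encodes an activin subunit, was under 0.1 FPKM in every EpiSC library and at 12.4 FPKM or more in ESCs.

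In the Wnt list, 16 of 28 tested genes rose, 8 fell and 4 were not called (median 0.45), where 33.2% of all tested genes rose and 26.5% fell. The ligand Wnt3, needed for primitive streak formation, had 5.94, 9.01 and 8.87 FPKM in EpiSCs, against 0.0694, 0.0329 and 0.0230 FPKM in ESCs. Lef1, a DNA-binding effector of the pathway, had 12.2, 14.0 and 13.3 FPKM in EpiSCs and 0.609, 0.670 and 0.687 FPKM in ESCs (log2 difference 3.09, SE 0.08, adjusted p = 1.19e-10). Feedback inhibitors of the pathway differed in direction, as Axin2 and Notum fell and Rnf43 and Nkd2 rose, Nkd2 without passing the threshold under quantile normalization (adjusted p = 0.154). Axin2, the common readout of beta-catenin activity, had 3.01, 2.96 and 2.64 FPKM in EpiSCs and 10.4, 9.78 and 9.84 FPKM in ESCs. Notum, a secreted inhibitor of Wnt ligands, had 0.107, 0.380 and 0.277 FPKM in EpiSCs and 13.7, 13.9 and 15.6 FPKM in ESCs, and Cdx1 was listed at 0 in all 3 EpiSC libraries against 18.3, 20.0 and 19.8 FPKM in ESCs.

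Genes of the lineages that follow the epiblast showed no common direction. Of 11 tested primitive streak and endoderm genes, 4 rose, 3 fell and 4 were not called, where 33.2% of all tested genes rose and 26.5% fell. T (brachyury), the T-box factor of the primitive streak, had 7.99, 6.69 and 7.24 FPKM in EpiSCs, against 0.874, 1.11 and 0.810 FPKM in ESCs (log2 difference 2.11, SE 0.08, adjusted p = 1.94e-09). Eomes, another T-box factor, had 7.21, 5.21 and 5.53 FPKM in EpiSCs and between 10.9 and 11.7 FPKM in ESCs. These levels were low in both groups and the groups did not overlap. Of 9 tested neural and ectoderm genes, 2 rose and 5 fell. Nes, the intermediate filament nestin, had 54.2, 38.3 and 37.5 FPKM in EpiSCs and 1.60, 1.64 and 1.56 FPKM in ESCs. Tubb3, a neuronal tubulin, had 14.7, 10.5 and 8.87 FPKM in EpiSCs, against 70.4, 65.8 and 69.7 FPKM in ESCs, and Sox1, a neural plate factor, was under 0.1 FPKM in every EpiSC library.

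Markers of other cell types that could be present were also measured. Of 30 fibroblast markers, 16 were higher in EpiSCs, 3 were lower and 11 were not called, where 33.2% of all tested genes rose and 26.5% fell. Col1a2, a collagen chain, had 1.69, 2.01 and 2.11 FPKM in EpiSCs and at most 0.0902 FPKM in ESCs, against a mean of 394 FPKM in MEFs. Thbs1, thrombospondin, had 25.2, 8.65 and 8.80 FPKM in EpiSCs, less than 0.1 FPKM in each ESC library and a mean of 468 FPKM in MEFs. In every EpiSC library 17 of the 30 markers were under 1 FPKM, among them Dcn, Lum and Postn, and Ccl2 and Fap were listed at 0. The EpiSC levels were thus above those of ESCs and far below those of MEFs, and the part of such cells in the other results was not tested. Of 12 primitive endoderm markers 8 rose, led by the matrix genes Serpinh1 and Lamb1, while the defining factors Gata6 and Sox17 were under 1 FPKM in every EpiSC library and were not called, and of 11 trophectoderm markers 4 rose, among them the keratins described above, and 6 fell, among them Tead4, while Cdx2 was listed at 0 in every EpiSC library.

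Genes of DNA methylation went both ways, with 8 of 19 tested genes higher, 8 lower and 3 not called, beside 33.2% and 26.5% of all tested genes. The counts were 5 higher and 9 lower under median-of-ratios scaling and 6 higher and 8 lower under quantile normalization. The de novo methyltransferase genes Dnmt3a, Dnmt3b, described above, and Dnmt3c rose. Dnmt3a had 32.6, 30.6 and 32.8 FPKM in EpiSCs, against 29.8, 19.8 and 17.2 FPKM in ESCs (log2 difference 0.54, SE 0.21, adjusted p = 0.0412). The call on Dnmt3a was lost under median-of-ratios scaling (adjusted p = 0.0920), with a replicate block (adjusted p = 0.0533) and on leaving out any 1 EpiSC library or ESC replicate 2 or 3, and its adjusted p lay between 0.00549 and 0.163 over the alternatives. Dnmt3c had 6.40, 10.2 and 12.7 FPKM in EpiSCs and less than 0.5 FPKM in ESCs. Dnmt3l, their catalytically inactive cofactor, had 0.215, 0.523 and 0.140 FPKM in EpiSCs, against 129, 119 and 118 FPKM in ESCs (log2 difference -6.58, SE 0.12, adjusted p = 1.18e-11). Of the TET dioxygenases, which oxidise methylated cytosine, Tet1 and Tet2 fell and Tet3 rose. Tet2 had 0.561, 7.74 and 8.52 FPKM in EpiSCs and 42.0, 38.7 and 41.8 FPKM in ESCs, so replicate 1 held much less than the other EpiSC libraries. Tet1 had 16.0, 30.1 and 26.2 FPKM in EpiSCs and 69.5, 63.1 and 70.8 FPKM in ESCs. Zfp57, which protects imprints from loss of methylation, had 24.6, 27.9 and 27.4 FPKM in EpiSCs, against 287, 277 and 280 FPKM in ESCs.

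Germline genes, a class known to be held silent by promoter methylation in somatic cells, were lower in EpiSCs in 16 of 17 tested cases. Their median difference was -1.45, where 26.5% of all tested genes fell. Another 9 members did not reach the filter. Summed over the list, EpiSCs had 3.85 to 5.57 FPKM, against 105 to 108 FPKM in ESCs and 273 to 290 FPKM in 2CLCs. Members could thus enter through ESCs or 2CLCs alone, and the count of falls was in part set by that. Rpl10l, a testis-specific ribosomal protein gene, had 0.135, 0 and 0.0713 FPKM in EpiSCs, against 42.8, 45.2 and 45.7 FPKM in ESCs (log2 difference -5.42, SE 0.06, adjusted p = 6.20e-13). Ddx4, an RNA helicase of germ cells, had 0.141, 0 and 0.0855 FPKM in EpiSCs and 4.91, 5.16 and 4.33 FPKM in ESCs. Dazl, Mael and Sohlh2 were listed at 0 in all 3 EpiSC libraries and lay between 2.50 and 4.90 FPKM in ESCs. The exception, Taf9b, had 0.889, 0.753 and 0.907 FPKM in EpiSCs and 0.616, 0.542 and 0.720 FPKM in ESCs (adjusted p = 0.0416), and it was no longer called without replicate 1 (adjusted p = 0.0790).

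Targets of hypoxia-inducible factors rose in EpiSCs, and much more in replicates 2 and 3 than in replicate 1. Hypoxia-inducible factors are dimers of an oxygen-labile alpha subunit and ARNT that bind ACGTG in promoters and switch on genes for glycolysis, mitophagy and oxygen sensing. Of 32 tested targets and regulators 23 rose, 2 fell and 7 were not called, with a median difference of 1.97, where 33.2% of all tested genes rose. Without replicate 1 the counts were 27 higher and 4 lower, with a median of 2.60, where 37.1% of all tested genes rose and 30.6% fell. The genes that fell were Epas1, which encodes the HIF-2 alpha subunit, and Rbpj, the DNA-binding factor of Notch signalling. Hif1a, the HIF-1 alpha subunit, had 49.1, 34.1 and 31.7 FPKM in EpiSCs and 35.1, 36.6 and 38.2 FPKM in ESCs, so the groups overlapped and the gene was not called (adjusted p = 0.853). Leaving out replicate 1 gave a log2 difference of -0.15 for Hif1a (adjusted p = 0.0265).

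Promoter sequence is shown for the 4 targets with the largest rises among those whose window holds the motif, in RefSeq windows of the GRCm38.p6 build that run from 250 bases before to 50 bases after the annotated start. Each is written 5′ to 3′ on the strand of its gene, and capitals mark ACGTG on either strand, which in Bnip3 forms CACGTG, read on both strands.
Slc16a3, chr11:120948817-120949116, plus strand: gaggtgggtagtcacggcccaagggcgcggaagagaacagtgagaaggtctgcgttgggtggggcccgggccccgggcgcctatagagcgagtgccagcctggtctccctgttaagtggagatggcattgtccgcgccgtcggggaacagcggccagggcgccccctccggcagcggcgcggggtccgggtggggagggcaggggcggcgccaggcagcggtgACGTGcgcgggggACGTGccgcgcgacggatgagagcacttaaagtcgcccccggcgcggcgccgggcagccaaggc
Ddit4, chr10:59951721-59952020, minus strand: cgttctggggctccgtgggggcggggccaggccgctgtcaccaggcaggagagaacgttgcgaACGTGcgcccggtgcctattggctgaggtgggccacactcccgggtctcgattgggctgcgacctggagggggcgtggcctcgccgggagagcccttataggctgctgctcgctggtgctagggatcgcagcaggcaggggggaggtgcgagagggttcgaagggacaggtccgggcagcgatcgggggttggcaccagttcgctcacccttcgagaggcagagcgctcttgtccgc
Bnip3, chr7:138909457-138909756, minus strand: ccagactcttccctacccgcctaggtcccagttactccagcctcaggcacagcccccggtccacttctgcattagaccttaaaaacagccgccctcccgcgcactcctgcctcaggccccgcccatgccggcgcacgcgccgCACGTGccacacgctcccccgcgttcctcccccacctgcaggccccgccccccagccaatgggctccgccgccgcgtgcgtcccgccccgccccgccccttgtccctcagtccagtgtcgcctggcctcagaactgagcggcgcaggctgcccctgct
Egln3, chr12:54203825-54204124, minus strand: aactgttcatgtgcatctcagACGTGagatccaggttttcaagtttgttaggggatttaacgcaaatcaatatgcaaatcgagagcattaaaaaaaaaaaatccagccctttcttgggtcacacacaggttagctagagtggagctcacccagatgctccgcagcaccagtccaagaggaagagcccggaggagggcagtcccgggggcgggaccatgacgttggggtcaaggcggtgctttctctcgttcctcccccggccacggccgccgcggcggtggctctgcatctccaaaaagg

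ACGTG, searched on both strands, occurred in 21 of the 29 windows found for the hypoxia list (72.4%), against 5315 of 27025 windows of all genes (19.7%). Among members that rose and had a window it occurred in 16 of 19. In Slc16a3 it occurred at 2 places, of which the one nearer the 5′ end lay at position -27 from the annotated start. In Ddit4 it occurred once, at position -187, and in Egln3 once, at position -229. A match shows that the letters are present in the window and not that a factor was bound.

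Of the genes shown, Ddit4, an inhibitor of mTORC1 also known as REDD1, had 50.8, 422 and 422 FPKM in EpiSCs, against 7.92, 7.20 and 5.86 FPKM in ESCs. Its log2 difference was 4.72 (SE 0.63, adjusted p = 5.65e-05) with replicate 1 and 5.73 without it. Bnip3, a mitophagy receptor, had 36.4, 181 and 191 FPKM in EpiSCs and 3.66, 3.87 and 2.94 FPKM in ESCs. Egln3, a prolyl hydroxylase that marks HIF alpha for degradation, had 15.0, 136 and 137 FPKM in EpiSCs and 2.12, 1.81 and 1.66 FPKM in ESCs. In these genes replicate 1 lay between the ESC libraries and the other EpiSC libraries. Slc16a3 (MCT4), which exports lactate from glycolytic cells, had 125, 224 and 163 FPKM in EpiSCs, against 3.69, 3.76 and 4.17 FPKM in ESCs (log2 difference 5.10, SE 0.17, adjusted p = 8.71e-10). It was high in all EpiSC libraries, with replicate 1 the lowest of them.

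Ndrg1, a stress-responsive gene induced by low oxygen, had 12.2, 189 and 198 FPKM in EpiSCs, against 3.16, 3.67 and 3.41 FPKM in ESCs. Ankrd37, an ankyrin-repeat gene, had 7.30, 98.0 and 98.1 FPKM in EpiSCs and 2.56, 1.87 and 2.32 FPKM in ESCs. P4ha2, a prolyl hydroxylase for collagen, had 5.78, 66.1 and 70.5 FPKM in EpiSCs and 2.51, 1.86 and 1.86 FPKM in ESCs. In these genes replicate 1 was above the ESC libraries but nearer to them on the log2 scale than to its own group. Adm, the peptide hormone adrenomedullin, went further: it was listed at 0 in replicate 1 and at 5.07 and 4.38 FPKM in replicates 2 and 3, against 0.0878, 0.0560 and 0 FPKM in ESCs. Vegfa, the angiogenic growth factor, had 16.6, 60.5 and 61.4 FPKM in EpiSCs, against 5.41, 4.85 and 5.37 FPKM in ESCs. Its log2 difference was 2.72 (SE 0.38, adjusted p = 8.20e-05) and was 3.32 without replicate 1.

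**Figure D3:**
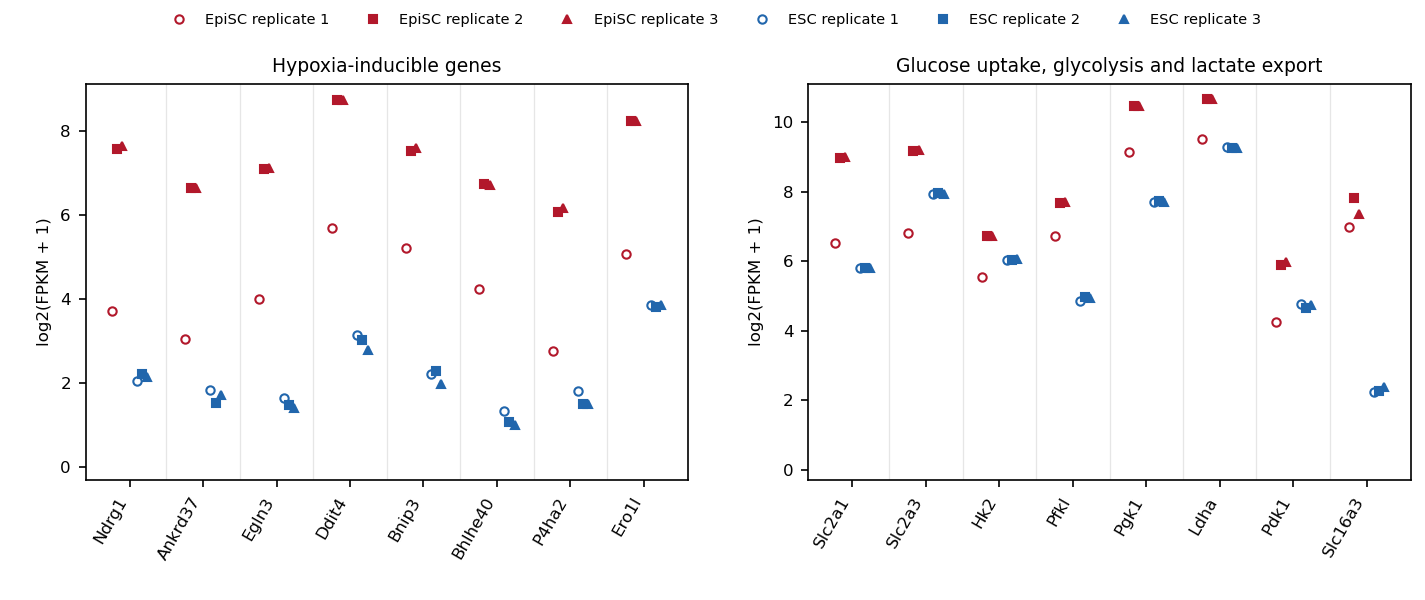
Each point is the log2(FPKM + 1) of a gene in 1 library, EpiSCs in red at the left and ESCs in blue at the right of each gene, with open circles for replicate 1. Replicate 1 lies below the other EpiSC libraries in all 16 genes, and for Slc2a3, Hk2 and Pdk1 it lies below the ESC libraries as well.

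Genes of glucose uptake and glycolysis, a list that shares Slc2a1, Pgk1, Ldha and other members with the hypoxia list, showed the same arrangement. Of 25 tested genes 15 rose, 1 fell and 9 were not called (median 0.90), beside 33.2% of all tested genes that rose and 26.5% that fell. Without replicate 1 the counts were 21 higher and 1 lower (median 1.34). Slc2a1 (GLUT1), the basal glucose transporter, had 90.4, 494 and 508 FPKM in EpiSCs, against 54.3, 54.8 and 55.2 FPKM in ESCs (log2 difference 2.35, SE 0.50, adjusted p = 0.00188, and 3.17 without replicate 1). Pgk1, phosphoglycerate kinase, had 568, 1407 and 1417 FPKM in EpiSCs and 205, 211 and 207 FPKM in ESCs. Ldha, the lactate dehydrogenase subunit that favours lactate, had 725, 1617 and 1631 FPKM in EpiSCs and 625, 615 and 604 FPKM in ESCs. All 3 EpiSC libraries were above all ESC libraries in these genes, replicate 1 by the smallest margin. Pfkm, the muscle form of phosphofructokinase, rose alike in all EpiSC libraries, with 70.2, 63.0 and 64.6 FPKM in EpiSCs and 12.8, 11.8 and 13.0 FPKM in ESCs. Galm, galactose mutarotase, was the member that fell, with 2.58, 3.09 and 3.63 FPKM in EpiSCs and 5.10, 5.13 and 6.28 FPKM in ESCs.

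Slc2a3, Hk2 and Pdk1 were not called with all libraries, and in each replicate 1 lay below the ESC libraries and replicates 2 and 3 above them, as the plot of hypoxia and glycolysis genes by library shows. Slc2a3 (GLUT3), a high-affinity glucose transporter, had 110, 572 and 580 FPKM in EpiSCs, against 245, 247 and 244 FPKM in ESCs. Hk2, a hexokinase bound to mitochondria, had 45.9, 105 and 104 FPKM in EpiSCs and 64.8, 64.1 and 65.3 FPKM in ESCs. Pdk1, a kinase that shuts pyruvate out of mitochondria, had 17.9, 57.6 and 61.9 FPKM in EpiSCs and 26.2, 24.3 and 25.6 FPKM in ESCs. Without replicate 1 each was called higher in EpiSCs, with log2 differences of 1.23 for Slc2a3, 0.68 for Hk2 and 1.21 for Pdk1. Gapdh was not called and was unlike the rest, with 31.9, 50.0 and 190 FPKM in EpiSCs and 50.5, 52.3 and 45.1 FPKM in ESCs; it has many near-identical processed copies between which reads may be split.

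Over the genome, EpiSC replicate 1 stood apart from both other EpiSC libraries in 588 of the 16358 tested genes, by the rule of at least 1 on the log2 scale from each while those lay within 0.5 of each other. It was above them in 168 genes (1.03%) and below them in 420 (2.57%). The same rule applied to every other library of the table gave 15 to 42 genes. Of the 420 genes in which replicate 1 was lower, 347 had replicate 1 nearer to the ESC mean than the other EpiSC libraries were (82.6%), as had 91 of the 168 genes in which it was higher (54.2%). Over all tested genes replicate 1 was nearer in 8545 (52.2%) and farther in 6646, and the rest were ties. The 588 genes held no ties, so the 52.2% is too low to set beside their shares. The genes in which replicate 1 was higher split into 91 nearer and 77 farther. Of the hypoxia list 26 of 32 tested members were among the genes with replicate 1 lower and 0 among those with it higher, and of the glycolysis list 14 of 25 and 0. Slc2a1, Hk2, Pfkfb3, Aldoc, Pgk1, Ldha and Pdk1 are on both lists and in both counts, which are therefore not separate results.

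The genes in which replicate 1 was farthest below were Ndrg1, Upp1, Ankrd37, Bhlhe41, P4ha2, Pfkfb3, Ero1l, Egln3, Ddit4 and Ascl2. Upp1, uridine phosphorylase, had 5.49 FPKM in replicate 1 and 87.9 and 90.1 FPKM in the other EpiSC libraries, against 103, 125 and 126 FPKM in ESCs, so there replicate 1 was the farther from ESCs. Pfkfb3, which makes the activator of phosphofructokinase, had 8.79, 100 and 93.7 FPKM in EpiSCs and 3.65, 3.75 and 3.29 FPKM in ESCs. Ascl2, a basic helix-loop-helix factor of trophoblast, had 1.34, 18.6 and 16.4 FPKM in EpiSCs and 0.418, 0.255 and 0.318 FPKM in ESCs. In Pfkfb3 and Ascl2 replicate 1 was the EpiSC library nearest to ESCs.

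The genes in which replicate 1 was farthest above were Amd2, Fgfbp1, Mat2a, Rbm12, Cyp1a1, Lefty1, Trim67, Zhx1, H2ac10 and Dok2. Mat2a, which makes S-adenosylmethionine, had 225 FPKM in replicate 1 and 45.8 and 43.1 FPKM in the other EpiSC libraries, against 241, 220 and 223 FPKM in ESCs. Its log2 difference was -1.56 with all libraries (adjusted p = 0.0148) and -2.33 without replicate 1. Rbm12, an RNA-binding protein, had 29.3, 4.46 and 5.58 FPKM in EpiSCs and 15.5, 16.9 and 17.7 FPKM in ESCs, and was not called. Cyp1a1, the enzyme induced by the aryl hydrocarbon receptor, had 11.1, 1.76 and 1.63 FPKM in EpiSCs and less than 0.2 FPKM in each ESC library. Replicate 1 thus matched the ESC level in Mat2a, exceeded it in Rbm12 and was the farthest from it in Cyp1a1. Fgfbp1, which releases FGFs from the matrix, had 26.0, 4.01 and 3.80 FPKM in EpiSCs and 7.36, 5.22 and 6.28 FPKM in ESCs, and turned to lower in EpiSCs without replicate 1 (log2 difference -0.56, adjusted p = 0.00890).

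**Figure D4:**
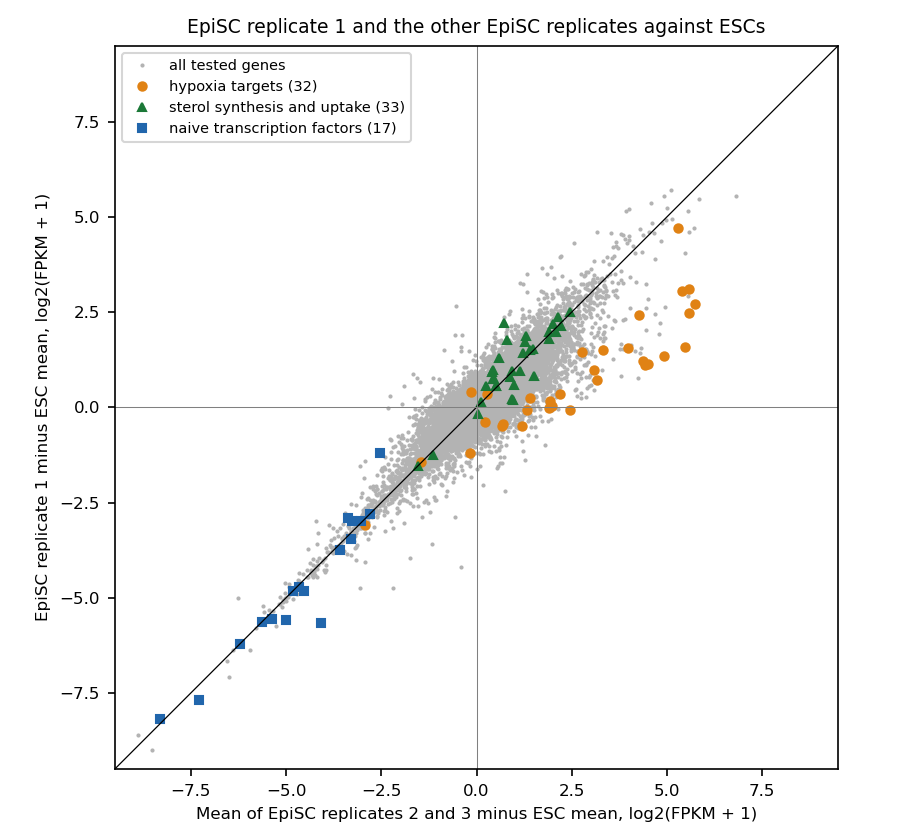
Each grey point is 1 of the 16358 tested genes, with the mean of EpiSC replicates 2 and 3 minus the ESC mean on the x axis and EpiSC replicate 1 minus the ESC mean on the y axis, both in log2(FPKM + 1); the diagonal marks equal values. By the rule for a library apart, replicate 1 stood apart in 2 of 17 naive factors and 1 of 33 sterol genes, and 26 of the 32 hypoxia targets lie at least 1 below it.

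Genes of cholesterol synthesis and uptake rose in every EpiSC library by about the same amount. Of 33 tested genes 30 were higher, 2 were lower and 1 was not called, where 33.2% of all tested genes rose. The median difference from the ESC mean was 0.95 in replicate 1, 0.90 in replicate 2 and 0.95 in replicate 3. This pathway runs from acetyl-CoA through mevalonate to cholesterol and is controlled by SREBP2, which is held in the endoplasmic reticulum by SCAP and INSIG when sterols are abundant. Srebf2, which encodes SREBP2, had 159, 151 and 152 FPKM in EpiSCs, against 56.2, 51.6 and 54.4 FPKM in ESCs (log2 difference 1.49, SE 0.05, adjusted p = 4.16e-10). Cyp51, which demethylates lanosterol, had 98.0, 92.8 and 95.1 FPKM in EpiSCs and 17.3, 16.3 and 15.6 FPKM in ESCs. Insig1 had 121, 104 and 102 FPKM in EpiSCs and 22.1, 22.7 and 23.6 FPKM in ESCs. The groups did not overlap in any of these.

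The 2 members that fell were Ebp, a sterol isomerase of the same pathway, and Abca1, the exporter of cholesterol, and Scap was not called. Abca1 had 0.0154, 0.0212 and 0.0254 FPKM in EpiSCs, against 1.77, 1.94 and 2.15 FPKM in ESCs. Hmgcs1, which makes the precursor of mevalonate, had 235, 158 and 158 FPKM in EpiSCs and 62.8, 63.4 and 64.0 FPKM in ESCs, and its promoter window is shown because it alone of the 23 windows found for the list held the sterol element searched, TCACNCCAC on either strand (4.35%, against 1.22% of the 27025 windows of all genes). Capitals mark that match.
Hmgcs1, chr13:119690101-119690400, plus strand: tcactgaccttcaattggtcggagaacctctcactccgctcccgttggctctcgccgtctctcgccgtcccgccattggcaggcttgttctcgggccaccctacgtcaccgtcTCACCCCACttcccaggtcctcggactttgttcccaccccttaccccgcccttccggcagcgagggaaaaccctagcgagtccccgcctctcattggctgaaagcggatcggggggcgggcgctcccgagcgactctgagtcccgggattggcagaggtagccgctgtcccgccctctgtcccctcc

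Fatty acid genes rose in 13 of 18 tested cases and fell in 3, or in 5 without replicate 1. Of all tested genes 33.2% rose and 26.5% fell, or 37.1% and 30.6% without replicate 1. Fads2, a desaturase for polyunsaturated fatty acids, had 74.2, 97.6 and 105 FPKM in EpiSCs, against 18.7, 19.3 and 19.3 FPKM in ESCs (log2 difference 2.20, SE 0.11, adjusted p = 1.81e-08). Scd2, a desaturase for saturated chains, had 300, 222 and 225 FPKM in EpiSCs and 74.7, 81.6 and 80.9 FPKM in ESCs. Genes of fatty acid oxidation went both ways, as Cpt1a and Acadm fell and Cpt2, Acadl and Acadvl rose. The other fall was Acacb, whose product inhibits CPT1. Acadl, a dehydrogenase for long chains, had 35.7, 28.9 and 27.7 FPKM in EpiSCs and 8.61, 8.81 and 8.74 FPKM in ESCs. Cpt1a, the gate for fatty acid entry into mitochondria, had 2.91, 2.52 and 2.44 FPKM in EpiSCs, against 13.3, 13.0 and 13.5 FPKM in ESCs. The groups did not overlap in Fads2, Scd2, Acadl or Cpt1a.

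Nuclear genes of oxidative phosphorylation moved little, with a median of -0.13. Of 78 tested genes 33 fell, 7 rose and 38 were not called, where 26.5% of all tested genes fell and 33.2% rose. The count of rises depended on replicate 1, since it became 20 without that library, with 32 falls and a median of -0.07, and 15 under quantile normalization. Atp5g1, for a subunit of the ATP synthase ring, had 63.4, 83.3 and 78.6 FPKM in EpiSCs, against 161, 173 and 162 FPKM in ESCs. Atp5g2, which encodes the same ring subunit, went the other way, with 268, 361 and 372 FPKM in EpiSCs and 167, 169 and 161 FPKM in ESCs (log2 difference 0.99, SE 0.10, adjusted p = 8.26e-06). Of the 13 protein genes of the mitochondrial genome, 8 fell and 5 were not called, with a median of -0.23, and without replicate 1 the counts were 8 lower and 3 higher. The largest of these falls was in mt-Nd1, a complex I subunit, at 1247, 1280 and 1247 FPKM in EpiSCs and 1867, 1853 and 1868 FPKM in ESCs.

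Imprinted genes, expressed from a single parental allele, rose in 18 of 35 tested cases and fell in 12, where 33.2% of all tested genes rose and 26.5% fell. Grb10, a growth-inhibiting adaptor, had 98.1, 112 and 112 FPKM in EpiSCs, against 2.19, 2.16 and 2.32 FPKM in ESCs (log2 difference 5.07, SE 0.08, adjusted p = 4.49e-12). The maternally expressed noncoding RNAs Meg3 and Rian, of the same cluster, rose together. Meg3 had 115, 111 and 116 FPKM in EpiSCs and 10.2, 9.84 and 8.78 FPKM in ESCs, and Dlk1, the paternally expressed gene of that cluster, had 0.0721, 0.173 and 0.251 FPKM in EpiSCs and 1.62, 1.62 and 1.37 FPKM in ESCs. Impact, a regulator of the kinase GCN2, had 2.14, 1.97 and 1.92 FPKM in EpiSCs, against 43.3, 40.8 and 44.5 FPKM in ESCs. Paternally expressed genes were among the rises and the falls. Plagl1 and Nnat fell, each to under 4 FPKM in every EpiSC library, and Igf2, Peg3, Snrpn, Ndn, Magel2, Usp29 and Sgce rose. Beside these, Dlk1 and Impact, the falls of the list were Peg10, Mest, Zrsr1, Mcts2, Airn, Peg13, Gab1 and Zdbf2. Mirg, of the cluster of Meg3, and Ascl2 were among the other rises. Snrpn, for a spliceosome protein, had 193, 227 and 231 FPKM in EpiSCs and 97.9, 99.2 and 100 FPKM in ESCs.

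Of 27 genes of G1 control 8 rose, 9 fell and 10 were not called, where 33.2% of all tested genes rose and 26.5% fell. Of the inhibitors of cyclin-dependent kinases, Cdkn1a, Cdkn1b, Cdkn1c, Cdkn2b and Cdkn2d rose, Cdkn2c was not called and Cdkn2a fell. Cdkn2a had 1.44, 2.25 and 2.91 FPKM in EpiSCs, against 12.1, 12.2 and 12.1 FPKM in ESCs (log2 difference -2.07, SE 0.14, adjusted p = 2.98e-07). Cdkn1a (p21) had 37.5, 81.3 and 84.1 FPKM in EpiSCs, against 27.1, 26.9 and 25.9 FPKM in ESCs (log2 difference 1.23, SE 0.24, adjusted p = 9.51e-04, and 1.60 without replicate 1). Cyclins D1, D2, D3, E1, E2 and A2 fell, and Ccnd3 had 44.3, 53.4 and 54.0 FPKM in EpiSCs and 141, 140 and 146 FPKM in ESCs. Of 34 Polycomb genes 14 fell, 8 rose and 12 were not called. Epop, which links Polycomb complex 2 to elongins, had 22.4, 23.3 and 25.0 FPKM in EpiSCs, against 205, 206 and 213 FPKM in ESCs. Pcgf5 had 4.15, 21.1 and 21.9 FPKM in EpiSCs and 2.74, 2.95 and 2.56 FPKM in ESCs, so that its rise was small in replicate 1.

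Genes higher in EpiSCs than in each of ESCs, 2CLCs and MEFs numbered 2531 (15.5% of those tested), and those lower than in each numbered 656 (4.01%). The first count fell to 1523 under median-of-ratios scaling and was 810 where a log2 difference of at least 1 was required in each contrast. Of the primed epiblast list 22 of 30 tested members were among the genes higher than in all 3. So were 21 of 40 epithelial, 17 of 33 sterol, 13 of 32 hypoxia and 13 of 25 glycolysis genes, and some of these lists share members. The 17 naive factors were all lower in EpiSCs than in ESCs and so could not be among them. The genes with the largest smallest fold over the 3 contrasts were Pim2, Otx2, Car14, Psors1c2, Rab25, Cldn6, Krt8, Fgf5, Enpp3, Krt18, Calcr and Slc39a8. Rab25, a small GTPase of epithelial recycling, had 27.1, 37.8 and 38.6 FPKM in EpiSCs and at most 0.392 FPKM in ESCs, and averaged 0.267 FPKM in 2CLCs and 0.140 FPKM in MEFs. Calcr, the calcitonin receptor, had 22.2, 16.5 and 17.1 FPKM in EpiSCs and at most 0.126 FPKM in ESCs, with means of 0.0438 FPKM in 2CLCs and 0.0176 FPKM in MEFs. Its smallest log2 difference over the contrasts was 4.14. Rab25 and Calcr were thus near 0 in all 3 other cell types.

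Genes of chromosomes 8 and 15 were offset between EpiSCs and ESCs, a pattern chosen after its values were seen and given with no test. Of the tested genes, 9575 reached 5 FPKM in the higher group and had a single chromosome in the GRCm38 annotation, and their median difference was 0.03, with 35.4% higher and 31.6% lower in EpiSCs. Chromosome 8 had a median of -0.41 over 551 genes, with 20.1% higher and 58.4% lower. Chromosome 15 had a median of 0.30 over 403 genes, with 52.1% higher and 18.4% lower. The other autosomes lay between -0.09 and 0.12, and the X chromosome was at 0.16.

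**Figure D5:**
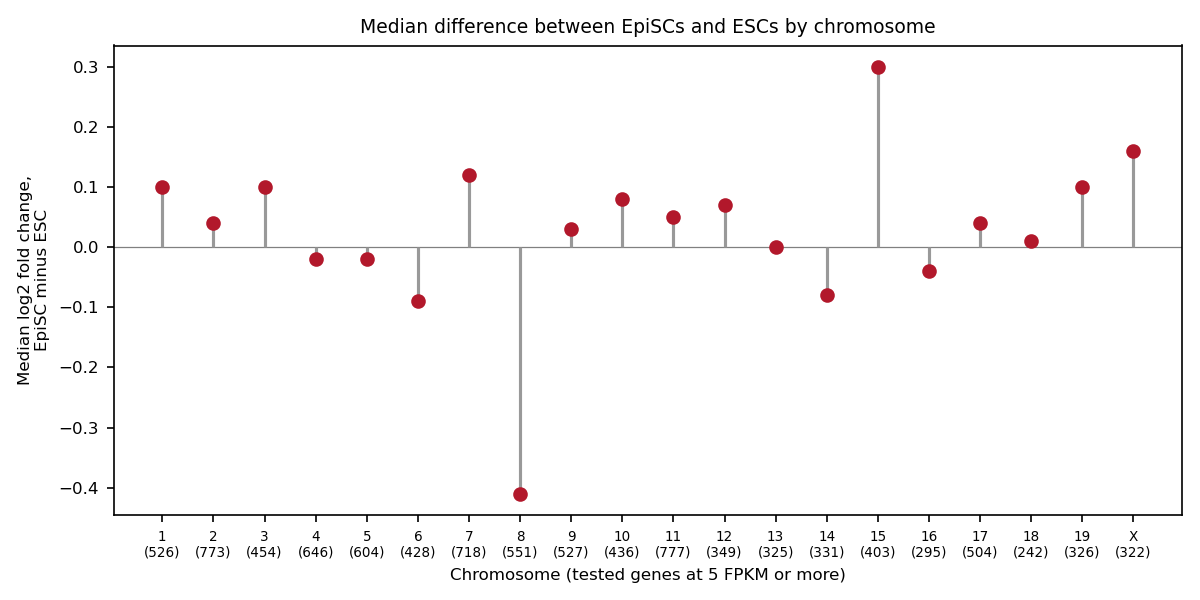
Each point is the median log2 difference, EpiSC minus ESC, over the tested genes at 5 FPKM or more on 1 chromosome, with the number of genes in brackets. Chromosome 8 lies at -0.41 and chromosome 15 at 0.30, while the other autosomes lie between -0.09 and 0.12.

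The offsets were alike in every EpiSC library. Less the median of all genes, chromosome 8 was at -0.44, -0.45 and -0.44 against the ESC mean in EpiSC replicates 1, 2 and 3, and chromosome 15 was at 0.29, 0.27 and 0.29. Set against the MEF mean, chromosome 8 was at -0.01 to 0.03 in EpiSC libraries, against 0.36 to 0.38 in ESC libraries and 0.33 to 0.38 in 2CLC libraries. Chromosome 15 was at 0.20 to 0.30 in EpiSC libraries, against 0.00 to 0.01 in ESC libraries and -0.21 to -0.17 in 2CLC libraries. Along the gene order, in 4 equal stretches, chromosome 8 was low throughout, at -0.32, -0.33, -0.47 and -0.60, whereas chromosome 15 was at -0.01, 0.15, 0.55 and 0.54. Zfp42, Triml2, Klf2 and Tubb3 lie on chromosome 8, and Krt8, Krt18, Enpp2 and Pfkm on chromosome 15, with differences far larger than these offsets. The labels give no karyotype, and a difference between the cell stocks cannot be told apart from the cell type.

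Y-linked genes differed between the groups too. Eif2s3y, a translation initiation factor subunit, had 35.1, 24.5 and 22.0 FPKM in EpiSCs, against 0.828, 1.08 and 0.826 FPKM in ESCs (log2 difference 3.86, SE 0.15, adjusted p = 2.00e-09). Kdm5d, a histone demethylase, had 5.74, 4.20 and 4.34 FPKM in EpiSCs and 0, 0 and 0.0124 FPKM in ESCs. Ddx3y and Uty rose as well, and all 4 genes averaged 0 FPKM in 2CLCs. Xist, the RNA that coats the inactive X chromosome, was under 1 FPKM in every library of both groups, against a mean of 32.9 FPKM in MEFs, and its values cannot be told apart from those of its antisense partner Tsix unless the counting used strand, on which the labels are silent. The sex of the cells is not given by the labels, so these differences cannot be told apart from a difference in origin.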

How the data were processed

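RNA-seq of OG2 mouse cells was deposited as FPKM per gene, with no counts, so the depth is unknown and no counting error can be given. Per the labels' protocols, total RNA was taken in Trizol and libraries were made with an Illumina TruSeq RNA kit for a MiSeq. Per the submitters' processing notes the tools were HISAT2 2.0.4 and StringTie 2.1.4 with the build mm10; annotation and strand handling are not given in the sources used here. The authors' FPKM values were used as deposited, and values of repeated gene names (35 names) were summed and left out of the list counts.

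Names with at least 1 FPKM in at least 3 of the 12 cell-state libraries were tested on log2(FPKM + 1) with limma 3.58.1 (R 4.3.3), a mean trend, and all 4 groups in 1 fit, with Benjamini-Hochberg adjustment over all tested names and a threshold of 0.05. The fit was tried on simulated data in which every library of a gene was drawn with the same spread. No simulated library stood apart as EpiSC replicate 1 does, so the trial cannot say how the fit handles such a library. An exact permutation test of 3 against 3 libraries cannot go below 0.1. Medians, counts and figures were made with pandas 2.3.3 and matplotlib 3.10.9 (numpy 2.4.6, Python 3.11.15). Alternatives covered the pseudocount, filters, scaling, the spread, library weights, a replicate block and leaving out each library.

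Genes were named as the 12 largest rises and falls at 5 FPKM or more in the higher group and the 12 highest in EpiSCs over the 3 contrasts. These were taken only from called genes with no overlap between the EpiSC libraries and the libraries compared. Also named were the 10 genes each way in which EpiSC replicate 1 stood farthest apart. Predicted genes, pseudogenes and repeated names were left out of all these rankings. From each list up to 8 members were named, with every member against its list's direction. Slc2a3, Hk2, Pdk1, Ldha, Vegfa, Hmgcs1, Foxd3, Lifr, Stat3, Socs3, Nodal, Cdh1, Cdh2, Foxh1, Dusp6, Zic2, B2m, H2-K1, Lin28a, Gapdh, Adm, Scap, Gata6, Sox17, Dcn, Lum, Postn, Ccl2, Fap, Cdx2, Cdkn2c, Rnf43, Nkd2, Acadvl, Dnmt3a, Igf2, Peg3, Snrpn, Ndn, Magel2, Usp29 and Sgce were added after their values were seen. The comparison, the gene lists and the tests were chosen with earlier results of these data known. The 9 libraries of the lactate experiment were not used here.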

Additional observations from a re-analysis of the deposited data

How the results depend on the processing

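Called genes numbered 5438 higher and 4327 lower in EpiSCs, and the counts stayed within 1.5 times of these under all 18 alternatives. Leaving out 1 library at a time gave 4958 to 6064 higher and 3920 to 5000 lower. Median-of-ratios scaling gave 4603 higher and 4936 lower, with 8842 of the 9765 calls made again and 0 in the opposite direction. Quantile normalization gave 4827 higher and 4850 lower, so the excess of rises over falls held under neither. The replicate numbers did not pair the libraries (correlations of deviations -0.027, 0.027 and -0.030), and with a replicate block the counts were 5348 higher and 4225 lower. EpiSC replicate 1 stood apart in 588 genes, and in 73 where 2 on the log2 scale was required. Genes higher in EpiSCs than in all 3 other cell types numbered 2531, or 810 with a log2 difference of at least 1 in each contrast and, in fits added after seeing the data, 1523 under median-of-ratios scaling and 3007 without EpiSC replicate 1.

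Of 340 named genes, 294 kept their direction and their side of the threshold under every alternative that gave a value, 34 lost their call under at least 1, and 3 reversed. Fgfbp1 moved to -0.52 with library weights and, leaving out 1 library at a time, lay between -0.56 and 0.68. Hif1a moved to -0.13 with library weights and lay between -0.15 and 0.16 over the same omissions. The value for mt-Atp6 was 0.00 under quantile normalization. The cause of these changes was not tested. Depth, the origin of the replicates and strand handling are unknown, which limits statements on low, overlapping and near-identical genes.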

Other observations

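Genes of antigen presentation by MHC class I rose in 10 of 17 tested cases and fell in 4, with a median difference of 0.96 on the log2 scale, where 33.2% of all tested genes rose and 26.5% fell. Tap1, a subunit of the peptide transporter, had 5.12, 17.3 and 17.7 FPKM in EpiSC replicates 1, 2 and 3, against 0.250, 0.306 and 0.157 FPKM in ESCs (log2 difference 3.37, SE 0.34, limma adjusted p = 5.64e-06). B2m, the invariant light chain, had 22.1, 19.1 and 22.1 FPKM in EpiSCs and 7.74, 8.60 and 8.63 FPKM in ESCs. Psmb8, an immunoproteasome subunit, had 1.71, 3.39 and 2.89 FPKM in EpiSCs and was listed at 0 in every ESC library. The subunit Psmb10 went the other way, with 10.4, 8.84 and 8.96 FPKM in EpiSCs and 39.3, 38.8 and 37.6 FPKM in ESCs. H2-Q4 also fell, but class I genes are near-identical to each other and reads may be split between them.

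Of 22 tested immediate early and heat shock genes 14 were higher in EpiSCs, 6 were lower and 2 were not called, beside 33.2% and 26.5% of all tested genes. The falls were the immediate early gene Ier2 and the heat shock genes Hspa1a, Hspa1b, Hsph1, Dnajb1 and Hspa8. Ier2 had 95.5, 48.9 and 47.9 FPKM in EpiSCs and 110, 112 and 114 FPKM in ESCs. Jun, a subunit of AP-1, had 16.1, 20.3 and 20.3 FPKM in EpiSCs, against 1.15, 1.19 and 1.40 FPKM in ESCs. Ier3, a stress-responsive gene, had 13.9, 89.2 and 91.2 FPKM in EpiSCs and 1.69, 2.38 and 2.70 FPKM in ESCs, with replicate 1 well below its group. The chaperone gene Hspa8 had 702, 601 and 611 FPKM in EpiSCs and 1008, 913 and 898 FPKM in ESCs. Of 23 targets and regulators of the amino acid response, 11 rose and 5 fell, and Atf4 itself had 88.9, 97.2 and 94.6 FPKM in EpiSCs, against 138, 130 and 132 FPKM in ESCs. Genes of the 2-cell stage summed to 17.6 to 19.1 FPKM in EpiSCs and 27.5 to 28.6 FPKM in ESCs, against 25458 to 28832 FPKM in 2CLCs. Of 23 tested, 10 were lower in EpiSCs, 1 was higher and 12 were not called. Members of this list could pass the filter through 2CLCs alone.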
